A study of Arabidopsis thaliana with 20 samples.

Results

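The AP2-type genes that the microRNA miR172 targets are 6 of the 27415 *Arabidopsis* genes on which small RNAs of 21 to 22 nt were counted in flower buds: *AP2* (*AT4G36920*), *TOE1* (*AT2G28550*, also called *RAP2.7*), *TOE2* (*AT5G60120*), *TOE3* (*AT5G67180*), *SMZ* (*AT3G54990*) and *SNZ* (*AT2G39250*). They were taken by gene identifier, and all 6 were in the count table of 20 libraries. In short, small RNAs from *AP2* were 5.21-fold to 5.69-fold more abundant in *cer7*, *rst1* and *ripr* buds than in wild-type buds. Those from *TOE2* had smaller fold changes and fewer counts, and were enough to be tested only through mutant libraries. Without wild-type replicate 3, *TOE2* passed the test in none of these mutants. Those from the other 4 genes did not pass the test or were too few to test. Without wild-type replicate 2, however, *TOE3* passed in each mutant, so the split between *TOE2* and *TOE3* is not firm.

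The study asked whether RST1 and RIPR act with the cytoplasmic RNA exosome, which degrades mRNA fragments that can otherwise become templates for small interfering RNAs. Of the 20 libraries, 5 came from *cer7* plants with a T-DNA in *CER7*, which encodes RRP45B, a core subunit of the exosome (3 of *cer7-gabi*, which the study calls *cer7-3*, and 2 of *cer7-sail*, taken as *cer7-4* by elimination). A further 6 came from plants with a T-DNA in *RST1* (3 each of *rst1-2* and *rst1-3*), 6 from plants with 1 inserted base in *RIPR* (3 each of *riprT* and *riprC*), and 3 from the wild type *col0*. Each line stands for 1 insertion event. All lines are in the Col-0 background, in which the exoribonuclease SOV is impaired, so mutants and wild type share this defect. Plants grew on soil at 20 °C, with 12 h of light a day for 3 weeks and 16 h for 3 more, and each library pooled closed buds of 4 plants, so that fewer cells of a type and less RNA per cell cannot be told apart.

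miR172 is a microRNA that accumulates as plants age. It acts on the mRNAs of AP2-type transcription factors, by cleavage and by repressing translation. *AP2* is a floral homeotic gene that specifies sepals and petals and restricts the C-function gene *AG* to the inner whorls, while *TOE1*, *TOE2*, *TOE3*, *SMZ* and *SNZ* encode related repressors of flowering. Cleavage by a microRNA leaves mRNA fragments that exonucleases, among them the exosome, normally remove.

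The mature miR172 sequences are printed because the site that they pair with is the feature the 6 genes share. Capitals mark the seed (bases 2 to 8), which is the same in the 3 forms. They were read from RefSeq's TAIR10.1 assembly, in which miR172a (chr2:11942918-11942938, minus strand) and miR172b-3p are identical, miR172c (chr3:3599791-3599811, minus strand) and miR172d-3p are identical, and miR172e-3p (chr5:23988566-23988586, plus strand) is a form of its own.
miR172a and miR172b-3p: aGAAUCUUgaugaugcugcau
miR172c and miR172d-3p: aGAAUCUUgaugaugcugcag
miR172e-3p: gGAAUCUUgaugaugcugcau

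The best-matching stretch of each gene's annotated transcripts is printed next, 5′ to 3′ on the mRNA, because it is what the mature sequences above pair with and the genes differ in it. Capitals mark the bases that do not form a Watson-Crick pair with the best-matching miR172 form.
AP2: cugcagcaucaucaGgauucu
TOE1: cAgcagcaucaucaGgauucu
TOE2: augcagcaucaucaGgauucu
TOE3: UGgcagcaucaucaGgauucu
SMZ: UugcagcaucaucaGgauucc
SNZ: UugUagcaucaucaGgauucc

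All 6 stretches carry 1 non-matching base opposite the seed, a G that faces a U. *AP2* (against miR172c and miR172d-3p) and *TOE2* (against miR172a and miR172b-3p) had no other mismatch. *TOE1* (against miR172c and miR172d-3p) and *SMZ* (against miR172e-3p) had 2 mismatches, and *TOE3* and *SNZ* had 3. The stretches lie in TAIR10.1 at chr4:17403019-17403039 for *AP2*, chr2:12226233-12226253 for *TOE1*, chr5:24210889-24210909 for *TOE2*, chr5:26802175-26802195 for *TOE3*, chr3:20373774-20373794 for *SMZ* and chr2:16389066-16389086 for *SNZ*. The genes on the plus strand are *AP2* and *TOE2*, and the other 4 are on the minus strand. Each stretch is in the coding sequence, except that the *SNZ* transcript with the best match places it in the 3′ UTR. It was in the last exon of the transcript used, or for *TOE2* in exon 9 of 10. Of 31342 annotated genes with a transcript, 8 (0.0255%) held a stretch with at most 3 mismatches to a mature miR172: the 6 described here, *BZIP34* (*AT2G42380*) and *AT5G12900*. A match of letters is a description and does not show that a site is used.

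Counts of 21 to 22 nt reads on genes summed to between 305475 and 522464 per library in *cer7*, 192747 and 296842 in *rst1*, 193616 and 371040 in *ripr*, and 203245 and 230727 in the wild type. The scaling factor of the trimmed mean of M-values (TMM) was 0.781 to 0.938 in *cer7* libraries, against 0.987 to 1.1 in wild-type libraries, so *cer7* levels depend more on the scaling. Counts of the mutated genes were low and do not check the labels: *CER7* had 1 to 8 in *cer7* and 0 to 4 in the wild type, *RST1* had 1 to 23 in *rst1* and 0 to 3 in the wild type, and *RIPR* had 0 to 1 in *ripr* and 0 in the wild type. Small RNA counts also do not report mRNA, so they give no check of the tissue, and the MIR172 genes were not analysed here. Levels are given in CPM, counts per 1000000 of a library's TMM-scaled total on tested genes. A gene was called where the quasi-likelihood test of edgeR gave a Benjamini-Hochberg adjusted p below 0.01 and its log2 fold change lay beyond 1 in either direction, among 2916 genes that passed a filter on low counts. The replicates of a line were grown on separate dates and in separate chambers, so p-values measure that spread too.

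*AP2* carried most of the small RNA counts of the 6 genes. It took 83.1% to 90.7% of their sum in *cer7* libraries, 81.8% to 88.8% in *rst1* libraries and 81.0% to 88.7% in *ripr* libraries, against 63.0%, 74.2% and 90.7% in the wild-type libraries, so the ranges overlap. The 6 genes together made up 0.0817% to 0.196% of all counts in the 17 mutant libraries, against 0.0237% to 0.0351% in the 3 wild-type libraries.

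**Figure D1:**
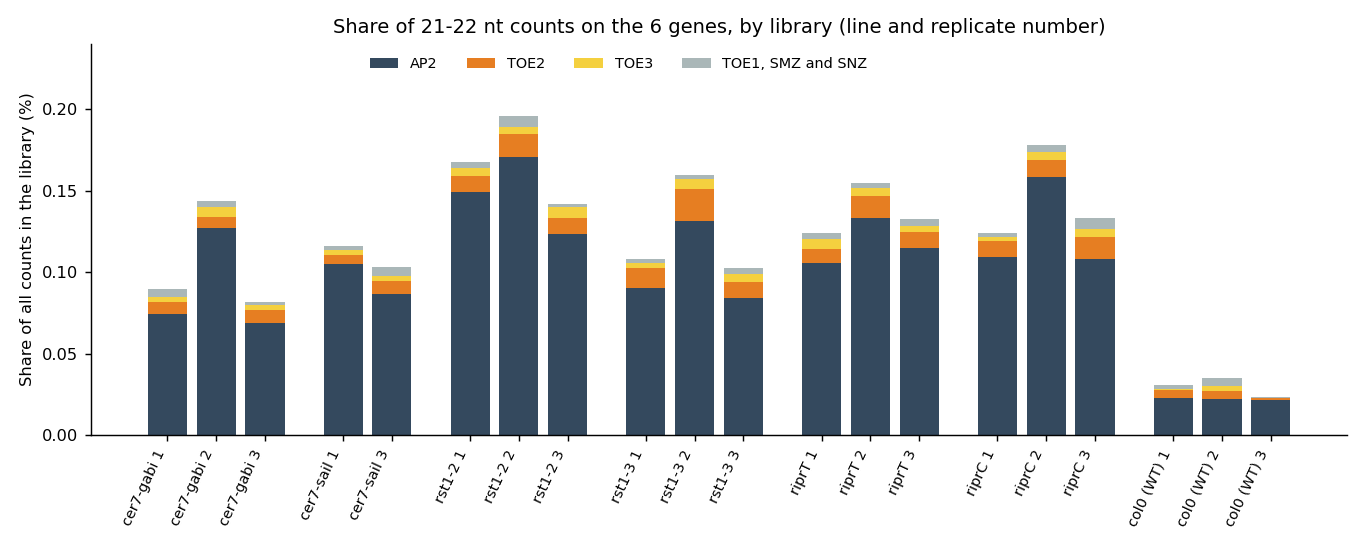
Share of all counts in a library (y axis, %) that fell on the 6 genes, stacked by gene, for each of the 20 libraries on the x axis, named by line and replicate number. The dark segment is *AP2*, which is the largest in every library, and the summed bars of the 3 wild-type libraries reach 0.0237% to 0.0351%.

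Of the 6 genes, 4 were tested. Of these, *AP2* and *TOE2* were called higher in *cer7* against the wild type, where 17.5% of all tested genes were called higher. The same 2 were called higher in *rst1* (9.91% of all tested genes) and in *ripr* (9.88%). *TOE2* entered the test through mutant libraries, so its calls are a description. None of the 4 was called lower in these comparisons, in which 2.3%, 0.652% and 0.72% of tested genes were. The 3 comparisons use the same 3 wild-type libraries and are therefore not independent of each other.

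In counts, *AP2* had 329, 665 and 354 in *cer7-gabi* and 321 and 266 in *cer7-sail*, against 46, 51 and 49 in the wild type. It had 398, 506 and 340 in *rst1-2* and 219, 345 and 162 in *rst1-3*. In *riprT* it had 364, 474 and 425, and in *riprC* 318, 448 and 209. Every mutant library was above every wild-type library, which was also the case for 22.6% of tested genes in *cer7*, 15.8% in *rst1* and 16.2% in *ripr*. At the scale of CPM, *AP2* averaged 1207 ± 310 in *cer7* (SD, n = 5), 1317 ± 356 in *rst1* (SD, n = 6) and 1280 ± 218 in *ripr* (SD, n = 6), against 231.5 ± 14.3 in the wild type (SD, n = 3). The lowest, median and highest libraries were 907.4, 1327 and 1782 CPM in *rst1* and 1096, 1186 and 1662 CPM in *ripr*. The wild-type libraries lay close together, and the spread among mutant libraries was wider.

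The log2 fold change of *AP2* over the wild type was 2.38 in *cer7* (SE, standard error, 0.241 and adjusted p = 4.25e-09), 2.51 in *rst1* (SE 0.239, adjusted p = 1.53e-09) and 2.47 in *ripr* (SE 0.239, adjusted p = 2.0e-09), or 5.21-fold, 5.69-fold and 5.52-fold. Small RNAs from *AP2* thus rose in all 3 mutants. Each of the 6 lines taken alone was also called against the wild type, with log2 fold changes from 2.22 in *rst1-3* to 2.75 in *rst1-2*. Of all tested genes, 15.7% were called higher in *cer7-gabi*, 14.9% in *cer7-sail*, 8.2% in *rst1-2*, 7.65% in *rst1-3*, 8.37% in *riprT* and 7.65% in *riprC*. The direct comparisons of the mutants gave -0.13 for *cer7* over *rst1* (SE 0.173, adjusted p = 0.744), -0.085 for *cer7* over *ripr* (SE 0.173, adjusted p = 0.804) and 0.043 for *rst1* over *ripr* (SE 0.165, adjusted p = 0.988).

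By line, mean *AP2* levels ran from 1560 ± 262 CPM in *rst1-2* through 1300 ± 315 in *riprC*, 1260 ± 136 in *riprT*, 1212 ± 113 in *cer7-sail* (n = 2), 1204 ± 431 in *cer7-gabi* and 1075 ± 267 in *rst1-3* to 231.5 ± 14.3 in the wild type (SD, n = 3 except where given). Neighbours in this order had overlapping ranges, except *rst1-3* and the wild type. The widest gap between lines of 1 gene was that of *rst1-2* over *rst1-3*, with a log2 difference of 0.54 (SE 0.216, unadjusted p = 0.0193 and adjusted p = 0.539 in edgeR's quasi-likelihood test), which did not pass.

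**Figure D2:**
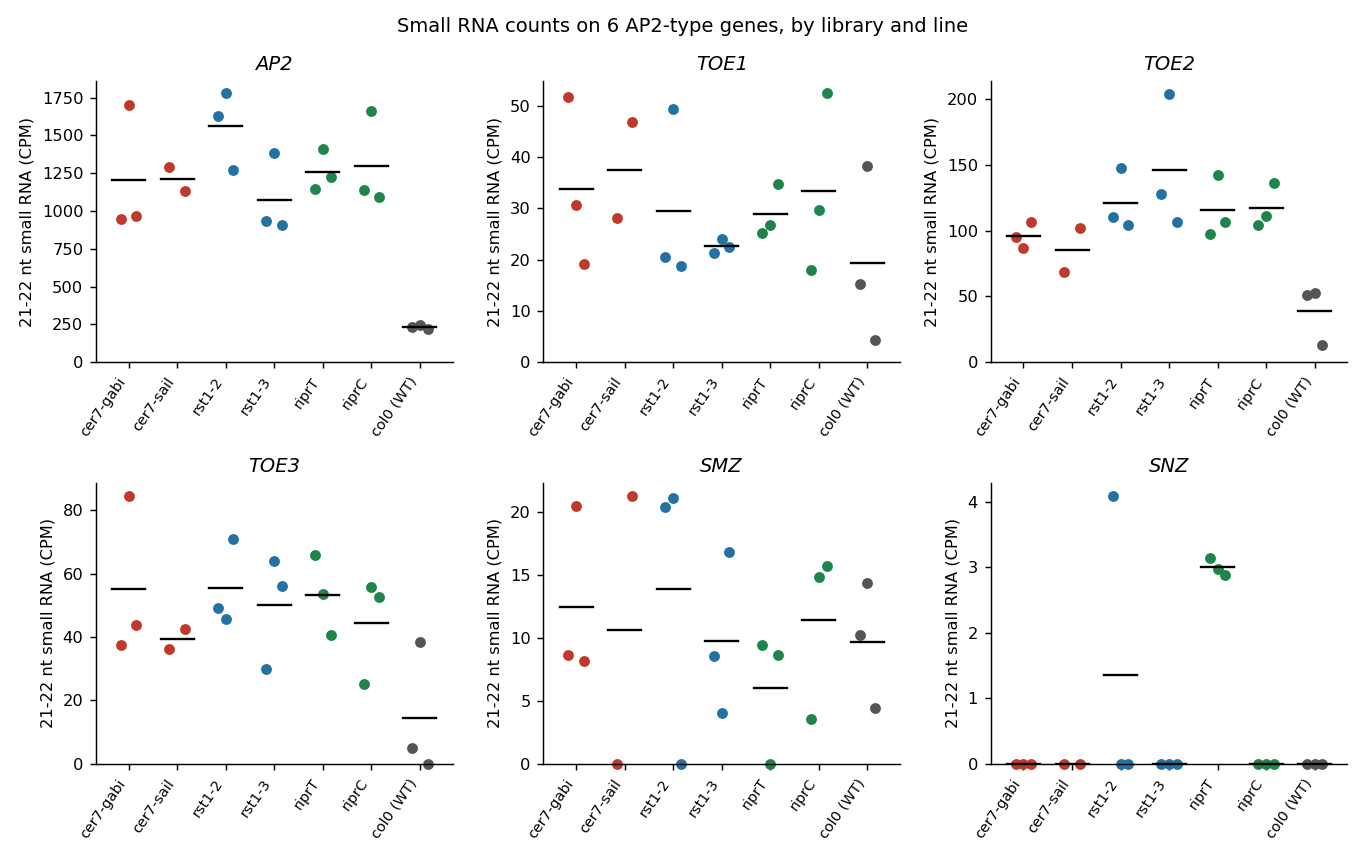
Level of 21 to 22 nt small RNAs (y axis, CPM, from 0) in each library, 1 panel per gene and 1 column per line, mutant lines left of the wild type *col0*; points are libraries and black lines are means. *AP2* points of the mutants start at 907.4 CPM, above the highest wild-type point of 244.0 CPM, whereas *SMZ* points of mutants and wild type overlap.

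*TOE2*, a repressor of flowering that is partly redundant with *TOE1*, had fewer counts. They were 33, 34 and 39 in *cer7-gabi* and 17 and 24 in *cer7-sail*, against 10, 11 and 3 in the wild type. *rst1-2* had 27, 42 and 28 counts and *rst1-3* had 30, 51 and 19. *riprT* had 31, 48 and 37 counts and *riprC* had 29, 30 and 26. No mutant library overlapped a wild-type library in CPM, and the wild-type library with 3 counts stood well below the others. Separation this complete, with all mutant libraries higher, was not particular to *TOE2*. Among tested genes, 22.6% showed it for *cer7* libraries, 15.8% for *rst1* libraries and 16.2% for *ripr* libraries.

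*TOE2* averaged 91.7 ± 14.98 CPM in *cer7* (SD, n = 5), 133.6 ± 38.4 in *rst1* (SD, n = 6) and 116.4 ± 18.6 in *ripr* (SD, n = 6), against 39.0 ± 22.3 in the wild type (SD, n = 3). Its log2 fold change was 1.25 in *cer7* (SE 0.344, adjusted p = 0.00481), 1.80 in *rst1* (SE 0.334, adjusted p = 0.00018) and 1.59 in *ripr* (SE 0.334, adjusted p = 0.000725). *TOE2* reached the limit of the low-count filter in 2 wild-type libraries and entered the test through mutant libraries, where it is high. Its calls are therefore a description. Taken line by line, it was called in 5 of the 6 lines, and *cer7-sail*, with 2 libraries, missed the threshold (1.14, SE 0.428, adjusted p = 0.0397). The comparison of *cer7* with *rst1* gave -0.54 (SE 0.233, adjusted p = 0.201) and that with *ripr* -0.33 (SE 0.232, adjusted p = 0.403), so neither difference passed. With scaling by library size only they were -0.87 (adjusted p = 0.00989) and -0.65 (adjusted p = 0.0431), short of the fold threshold.

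The call of *TOE2* depended on single libraries and on the processing. In *rst1* and *ripr* the processing changed it only under glmTreat, edgeR's test for a log2 fold change beyond 1. Without *col0* replicate 3, the log2 fold change was 0.72 in *cer7* (adjusted p = 0.123), 1.28 in *rst1* (adjusted p = 0.01, not below the threshold) and 1.07 in *ripr* (adjusted p = 0.0299), and *TOE2* was called in none of the 3. In *cer7* it was also lost without *cer7-gabi* replicate 3 (adjusted p = 0.0104), *cer7-sail* replicate 3 (0.0203) or *col0* replicate 2 (0.011). Over all alternatives tried, the adjusted p of *TOE2* ranged from 0.00236 to 0.404 in *cer7*, 8.05e-05 to 0.0439 in *rst1* and 0.000424 to 0.138 in *ripr*. These ranges include glmTreat, whose p-values answer a stricter question than those of the other tests. In the exons of *TOE2*, 481 of 2821 words of 21 bases also occur elsewhere in the genome, so that 82.95% are unique, against 98.37% to 99.76% in the other 5 genes. How reads of such words were counted was not tested.

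**Figure D3:**
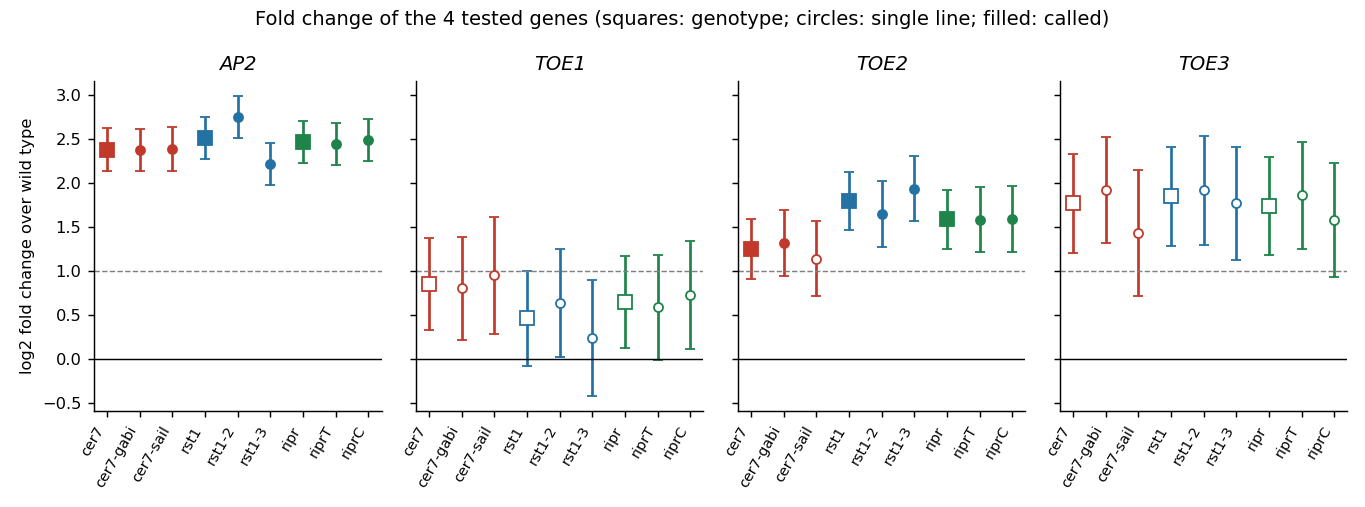
Log2 fold change over the wild type (y axis) of the 4 tested genes, with SEs as bars; squares are the genotypes *cer7*, *rst1* and *ripr*, circles are single lines, and filled symbols are called. *AP2* lies between 2.22 and 2.75 and is filled throughout, *TOE2* is filled except in *cer7-sail*, and *TOE3* and *TOE1* are open.

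*TOE3*, another AP2-type repressor, had 13, 33 and 16 counts in *cer7-gabi* and 9 and 10 in *cer7-sail*, against 1, 8 and 0 in the wild type. Its counts were 12, 13 and 19 in *rst1-2* and 7, 16 and 10 in *rst1-3*. They were 21, 18 and 14 in *riprT* and 7, 15 and 10 in *riprC*. The wild-type library with 8 counts lay at 38.3 CPM, within the range of the mutants, and the other two lay below all mutant libraries.

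*TOE3* averaged 48.8 ± 20.2 CPM in *cer7* (SD, n = 5), 52.6 ± 14.6 in *rst1* (SD, n = 6) and 48.9 ± 14.2 in *ripr* (SD, n = 6), against 14.5 ± 20.8 in the wild type (SD, n = 3). The log2 fold changes were 1.77 (SE 0.564, adjusted p = 0.0141), 1.85 (SE 0.559, adjusted p = 0.0166) and 1.74 (SE 0.558, adjusted p = 0.0236) in *cer7*, *rst1* and *ripr*, larger than those of *TOE2* but with wider errors, and none passed the threshold with all libraries and no replicate block. This outcome changed with the libraries and settings used. Without *col0* replicate 2, which leaves 1 wild-type count in all, *TOE3* was called in the 3 comparisons (adjusted p = 0.000549, 0.000746 and 0.000952). Over all alternatives, the stricter glmTreat among them, its adjusted p ranged from 0.000549 to 0.175 in *cer7*, 0.000746 to 0.209 in *rst1* and 0.000952 to 0.283 in *ripr*. It was also called in *cer7* without *cer7-sail* replicate 1 (adjusted p = 0.00946) or with TMM from genes called in no mutant (0.00789), in *rst1* without *rst1-3* replicate 1 (0.0099), and in *cer7* and *rst1* with the replicate number as a block (0.00619 and 0.00836). *TOE3* shares 119 bases with *AT5G67170* on the opposite strand, which had 0 to 2 counts in *cer7*, 0 to 2 in *rst1*, 0 to 3 in *ripr* and 0 to 2 in the wild type. Whether the counting used the strand is not given in the sources used here.

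*TOE1* had between 7 and 18 counts in *cer7*, 4 and 14 in *rst1* and 5 and 12 in *ripr*, against 3, 8 and 1 in the wild type. Its levels were 35.3 ± 13.6 CPM in *cer7* (SD, n = 5), 26.0 ± 11.5 in *rst1* (SD, n = 6) and 31.1 ± 11.8 in *ripr* (SD, n = 6), against 19.3 ± 17.3 in the wild type (SD, n = 3), and the groups overlapped. The log2 fold change was 0.86 in *cer7* (SE 0.524, adjusted p = 0.201), 0.46 in *rst1* (SE 0.536, adjusted p = 0.583) and 0.65 in *ripr* (SE 0.522, adjusted p = 0.427). None of these passed. Leaving out 1 library gave 0.25 to 1.80 in *cer7*, -0.12 to 1.38 in *rst1* and 0.078 to 1.59 in *ripr*, with the lowest value in each without *col0* replicate 3 and the highest without *col0* replicate 2, and *TOE1* was called in none of these fits (lowest adjusted p = 0.0498).

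*SMZ* and *SNZ*, 2 closely related repressors of flowering, did not pass the filter on low counts. *SMZ* had 0 to 8 counts in *cer7* (sum 19 over 5 libraries), 0 to 6 in *rst1* (sum 17 over 6) and 0 to 4 in *ripr* (sum 14 over 6), against 1 to 3 in the wild type (sum 6 over 3). It averaged 11.7 ± 9.0 CPM in *cer7*, 11.8 ± 8.9 in *rst1* and 8.7 ± 6.2 in *ripr*, against 9.7 ± 5.0 in the wild type (SD), and the ranges overlap. *SMZ* shares 544 bases with *AT3G54980* on the opposite strand, which had at most 2 counts in any library. *SNZ* had no count in *cer7* or the wild type, 1 count in 1 of 6 *rst1* libraries, and 1 count in each of the 3 *riprT* libraries with 0 in those of *riprC*. A count of 0 leaves a true level of up to about 3 counts possible, or 7.67 to 12.8 CPM in a *cer7* library. In a wild-type library it leaves 13.2 to 15.3 CPM possible, so these are upper limits on *SNZ* and not limits of detection. In a fit without the filter, over 25497 genes, the log2 fold change of *SMZ* was 0.34 in *cer7*, 0.26 in *rst1* and -0.14 in *ripr*, and neither gene was called.

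The filter asked for about 34.8 CPM, set on library size, in at least 3 libraries. *AP2* reached it in all 3 wild-type libraries, *TOE2* in 2, and *TOE1* and *TOE3* in none, so these last 3 entered the test through mutant libraries. Per kilobase of annotated exon, which allows levels to be compared between genes, *AP2* averaged 605 CPM per kb in *cer7*, 660 in *rst1* and 642 in *ripr*, against 116 in the wild type. *TOE2* averaged 30.8, 44.8 and 39.1 CPM per kb in the same mutants, against 13.1 in the wild type. *TOE3* averaged 27.6, 29.8 and 27.7 CPM per kb, against 8.18, and *TOE1* 13.4, 9.89 and 11.8, against 7.34. *SMZ* averaged 10.9, 11.0 and 8.12 CPM per kb, against 9.0, and *SNZ* was highest in *ripr* at 0.896. *AP2* thus stood first in every genotype, while *TOE2*, *SMZ*, *TOE1* and *TOE3* in the wild type lay within each other's SD. The order by mismatches in the stretch that pairs with miR172 was not the order of levels. *AP2* and *TOE2*, with 1 mismatch each, differed widely, and *TOE3* with 3 was above *SMZ* with 2 in the mutants. *TOE3* and *SMZ* had few counts, and whether the match bears on the levels was not tested.

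**Figure D4:**
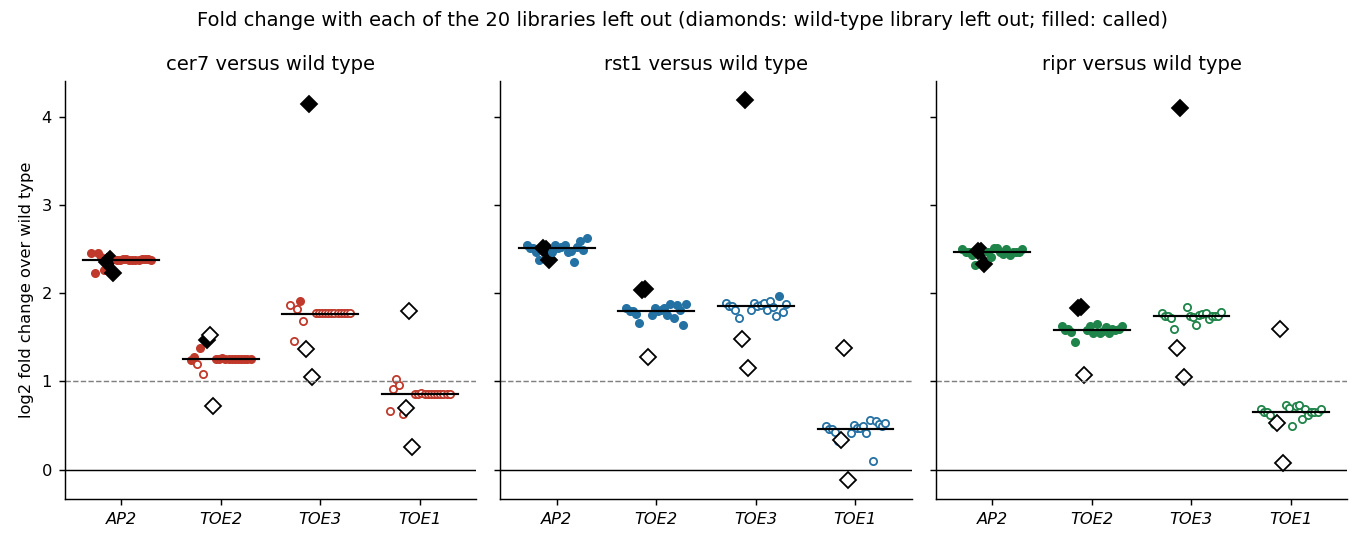
Log2 fold change over the wild type (y axis) of *AP2*, *TOE2*, *TOE3* and *TOE1* with each of the 20 libraries left out in turn, 1 panel per mutant; diamonds leave out a wild-type library, filled symbols are called, and black lines are the values with all libraries. *AP2* stays filled between 2.23 and 2.63. Leaving out *col0* replicate 3 leaves *TOE2* open, at 0.72 in *cer7*, 1.28 in *rst1* and 1.07 in *ripr*. Leaving out *col0* replicate 2 moves *TOE3* above 4.

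None of the 4 tested genes was called between *cer7* and *rst1*, *cer7* and *ripr*, or *rst1* and *ripr*, where 2.33%, 2.88% and 0.48% of all tested genes were called. None was called between the 2 lines of *cer7*, *rst1* or *ripr* either, where 0.343%, 0.206% and 0% of tested genes were. In these comparisons the 4 tested genes had log2 differences between -0.54 and 0.54. At an unadjusted p below 0.05, there were 2: *TOE2* between *cer7* and *rst1* (unadjusted p = 0.0266) and *AP2* between the *rst1* lines (unadjusted p = 0.0193), beside 557 and 218 of the 2916 tested genes in the same comparisons. DESeq2 also called none of the 4 between mutants or between lines.

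As a description, the tested genes whose log2 CPM followed that of *AP2* most closely over the 20 libraries were *PHO2* (*AT2G33770*, Pearson r = 0.971), which encodes a ubiquitin-conjugating enzyme of phosphate homeostasis, and *TCP3* (*AT1G53230*, 0.967) and *TCP4* (*AT3G15030*, 0.957), transcription factors of leaf development. *TOE2* was most like *ARF6* (0.881) and *ARF16* (0.875), auxin response factors, and *STO* (0.871). *TOE3* was most like *MYB33* (0.875), *FPA* (0.873) and *PI-4KBETA1* (0.869). *TOE1* had no gene above 0.723 (*AT3G02640* and *AT4G36130*, then *SCE1* at 0.72). Among the members, r was 0.794 for *AP2* with *TOE2*, 0.787 for *AP2* with *TOE3* and 0.445 for *AP2* with *TOE1*. The points share 4 genotypes and 1 set of 3 wild-type libraries, and at low counts they carry counting noise.

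Of 12 relatives with the same AP2 domain and no miR172 site (at least 6 mismatches), 1 passed the filter. That was *WRI3*, a WRINKLED-type regulator of fatty acid synthesis, whose small RNAs rose in *cer7* (13 to 56 counts), *rst1* (12 to 30) and *ripr* (14 to 32), against 3 to 7 in the wild type, with log2 fold changes of 2.22, 1.93 and 1.71 (adjusted p = 6.41e-05, 0.000664 and 0.00242). The floral regulators *ANT*, *AIL5*, *AIL6* and *AIL7* and the other relatives had too few counts to test. Of 16 genes that act with *AP2* or in flowering, 3 were tested. *HDA19*, a histone deacetylase that *AP2* recruits through TOPLESS, was called higher in each mutant, with 11 to 17 counts in *cer7*, 4 to 17 in *rst1* and 4 to 11 in *ripr*, against 0, 1 and 0 in the wild type (adjusted p = 0.000101, 0.000255 and 0.00159). *WRI3* and *HDA19* entered the test through mutant libraries, where they are high, so their calls are a description. *AP1* and *TPL* (TOPLESS) were tested and not called in any mutant, and *AG*, *LFY*, *FT* and *SOC1* were among the 13 below the filter.

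*SPL* genes, the targets of miR156 in the same ageing pathway, give a second set of microRNA targets for comparison. Of 11, 7 were tested, and 7 were called higher in *cer7*, 5 in *rst1* and 6 in *ripr*, with none lower. These 7 had 0 to 8 counts in wild-type libraries and entered the test through mutant libraries, so the counts of calls are a description and support nothing. Examples were *SPL2*, at 2.27, 3.06 and 3.07, and *SPL10*, at 2.37, 2.68 and 3.00 in *cer7*, *rst1* and *ripr*.

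*BZIP34* and *AT5G12900*, the other 2 genes with a stretch similar to the miR172 site, did not pass the filter. *BZIP34* had 0 to 1 counts in *cer7*, 0 to 2 in *rst1* and 0 to 4 in *ripr*, against 0 in the wild type. *AT5G12900* had 1 to 8 in *cer7*, 0 to 2 in *rst1* and 1 to 2 in *ripr*, against 0 to 1 in the wild type. Their counts lay near those of *SMZ* and *SNZ* and far below those of *AP2*. Both were named because the search found them, and their values were seen afterwards.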

How the data were processed

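Per the labels and the methods of the study, the authors trimmed reads with cutadapt (version 1.18), aligned them without mismatches to TAIR10 with ShortStack in unique mode, kept 21 to 22 nt and deposited raw counts per gene, 1 column per library, without normalization. The counting tool, strand use and handling of overlapping genes are not given in the sources used here. All columns were used (0 left out). The tools were R 4.3.3, edgeR 4.0.16 and limma 3.58.1. Low counts were removed with filterByExpr (at least 10 per library and 15 in total), and the remaining genes were scaled by TMM and fitted with glmQLFit (robust) over 20 libraries in 4 groups, with alleles together, or in 7 groups for single lines. P-values came from glmQLFTest with Benjamini-Hochberg adjustment over 2916 genes. Calls required an adjusted p below 0.01 and a log2 fold change beyond 1, the thresholds of the study. DESeq2 1.42.0, which the study used, was an alternative, beside other scalings, no filter, only the groups compared, a replicate block, glmTreat, an adjusted p below 0.05 and leaving out each library. The procedure was tested on simulated data, with changes placed only in *cer7* libraries and no replicate effect, and the outcome is not given here. In 19 pairs of libraries of a line, counts differed by more than sampling noise (a ratio of chi-square to its degrees of freedom of 3.79 to 11.8, over genes with at least 20 counts), so no pair was taken as 1 library. Limits of a count of 0 cover counting error only.

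Sequences and exon lengths come from RefSeq's TAIR10.1 assembly. All 6 genes are named, and of the other lists only genes called in a comparison with the wild type are given with values, with the 3 genes most correlated with each tested member and the overlapping genes; genes named without values were below the filter (*ANT*, *AG* and others) or tested and not called (*AP1*, *TPL*). The members and lists were chosen with earlier results of these data known.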

Additional observations from a re-analysis of the deposited data

Results flagged for a closer look

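In 17 sets of libraries (1 gene in 1 mutant genotype) of 5 or 6, 3 had a highest library far from the others relative to the whole range of the set. Chance alone sets about 1 in 20 such sets apart, which does not apply to *SNZ*. *TOE1* reached 49.3 CPM (14 counts) in *rst1-2* replicate 2, while the other *rst1* libraries had 4 to 6 counts. *TOE3* reached 84.4 CPM (33 counts) in *cer7-gabi* replicate 2, and the other *cer7* libraries had 9 to 16 counts. *SNZ* reached 4.09 CPM in *rst1-2* replicate 1, which is 1 count against 0 in the other 5 libraries, so that this set stands apart by construction. The groups of 3 wild-type libraries were not examined in this way.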

How the results depend on the processing

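*AP2* was called higher in the 3 comparisons with the wild type under all 28 alternatives that gave it a value, with log2 fold changes of 2.09 to 2.53 in *cer7*, 2.35 to 2.63 in *rst1* and 2.32 to 2.54 in *ripr*. The number of members called in *cer7* fell by 1, to 1, with library size only, without the low-count filter, with only the groups compared and with glmTreat, in each case because *TOE2* was not called; glmTreat also gave 1 in *rst1* and 1 in *ripr*. Leaving out 1 library gave 1 to 3 members called in each of *cer7*, *rst1* and *ripr*. Library size only shifted the median log2 fold change of all genes in *cer7* to -0.23, against 0.068, and the split of calls to 411 higher and 262 lower, against 510 and 67. Scaled to a library's counts on all genes, not only tested genes, and without TMM, the mean *TOE2* level in *cer7* was 69.9 CPM, against 91.7.

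With the replicate number as a block, members called were 3, 3 and 2 in *cer7*, *rst1* and *ripr*, since *TOE3* passed in *cer7* (log2 fold change 1.87, adjusted p = 0.00619) and *rst1* (1.91, adjusted p = 0.00836). No label ties a number to a shared date. The labels give replicates 1, 2 and 3 the series numbers 1, 2 and 4, alike in every line that has them. What a series number stands for is not given in the sources used here. Deviations from line means had a median correlation of 0.0671 between libraries with the same number and -0.0327 between others, and 17 of 20 libraries correlated best with their own number, a hint from the data of something shared. The correlation was above 0.1 in 14 of 57 pairs with the same number and in 5 of 114 other pairs. The fit without the block was kept because the methods of the study describe no replicate block. Whether *TOE3* is called in *cer7* and *rst1* depends on this choice.

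Small differences between mutants changed sign. Library size only gave -0.10 for *TOE1* and -0.29 for *TOE3* in *cer7* over *ripr*. TMM from genes called in no mutant gave 0.0098 for *TOE3* in *cer7* over *rst1* and 0.016 for *AP2* in *cer7* over *ripr*. Without the filter, *TOE3* in *cer7* over *ripr* was -0.011 and *AP2* in *rst1* over *ripr* was -0.044. Leaving out 1 library gave -0.28 to 0.025 (*AP2*) and -0.39 to 0.10 (*TOE3*) in *cer7* over *rst1*, -0.030 to 0.37 (*TOE1*) and -0.28 to 0.20 (*TOE3*) in *cer7* over *ripr*, and -0.081 to 0.14 (*AP2*) and -0.039 to 0.23 (*TOE3*) in *rst1* over *ripr*. *TOE1* over the wild type in *rst1* ranged from -0.12 to 1.38. None of these passed the test. The cause of these changes was not tested.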

Other observations

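In each of the 6 lines with 3 libraries, the wild type included, *AP2* was highest in the library with replicate number 2. Among mutant libraries with number 2 it lay between 1382 and 1782 CPM, against 244.0 CPM in the wild-type library of that number. With number 1 it lay between 933.9 and 1626 CPM in mutants, against 234.7 CPM, and with number 3 between 907.4 and 1271 CPM, against 215.9 CPM. The ratio of a mutant library to the wild-type library of its number was 3.98 to 6.93, 5.67 to 7.31 and 4.2 to 5.89 for numbers 1, 2 and 3. For *TOE1*, 1 of 5 mutant libraries with number 2 was above the wild-type library of that number, while all 12 with numbers 1 and 3 were above theirs. The replicates of a line differ in date and chamber, but whether a number marks the same date across lines is not given in the sources used here.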
